A study of Arabidopsis thaliana with 16 samples.

Results

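The comparison asks what changed in the transcripts of Arabidopsis thaliana seedlings when the nup50c mutation was added to the nup82 mutation. It sets the libraries labelled nup50c nup82 against the libraries labelled nup82, 2 of each, which are 4 of 16 libraries in all, taken by their genotype labels. The labels give 8 genotypes with 2 libraries each: wild type (WT, Col-0), the single mutants nup50c, nup82 and nup136, their 3 pairwise combinations, and nup50c nup82 nup136. All were whole seedlings at an age of 9 days, grown on MS medium with 1% sucrose without treatment, and their mRNA was sequenced with strand-specific libraries. The kind of lesion in each allele is not given in the sources used here. No label states that the 2 libraries of 1 genotype are from separately grown seedlings, so p-values measure only the spread between these samples.

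The nuclear basket is a filamentous structure on the nucleoplasmic side of the nuclear pore. NUP50 proteins of the basket bind importin alpha and Ran and help to release imported cargo, NUP136 (also called NUP1) is a basket nucleoporin of plants that takes part in mRNA export, and NUP82 is its paralog. In Arabidopsis, NUP136 and NUP82 are known to act together in salicylic acid defence.

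NUP50C (AT4G11790, chromosome 4, 7090313 to 7093492, TAIR10), the gene that differs between the groups, was measured first. Its transcripts stood at 38 and 42.5 CPM (read counts relative to library size, scaled by TMM) in the libraries labelled nup82 and at 8.99 and 8.77 CPM in those labelled nup50c nup82. The groups did not overlap, and the level in the latter was 22.1% of the former, a log2 fold change of -2.18 ± 0.136 (SE; adjusted p = 2.34e-10, edgeR quasi-likelihood test). The 6 libraries of the other genotypes with nup50c held between 9.76 and 15.0 CPM.

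NUP82 (AT5G20200, chromosome 5, 6816612 to 6821827) should be disrupted in both groups. It read 21.7 and 21.4 CPM in the libraries labelled nup82 but 31.1 and 26.8 CPM in those labelled nup50c nup82, against 29.5 and 34.96 CPM in WT. The libraries labelled nup82 nup136 read 29.03 and 25.95 CPM and those labelled nup50c nup82 nup136 36.7 and 37.5 CPM, so that of the 4 genotypes labelled with nup82 only the single mutant lay below all other libraries. The libraries labelled nup50c nup82 thus went against their nup82 label at this transcript, as did both other combinations labelled with nup82. Against nup82 their log2 fold change was 0.43 ± 0.111 (adjusted p = 0.0310), and the call was lost without nup50c nup82 replicate 1, nup82 replicate 1 or nup82 replicate 2. Counts are summed over the gene, and intact and disrupted transcripts count alike. Another transcript, AT2G41980, named after its values were seen, was low in both groups: 0.504 and 0.527 CPM in the libraries labelled nup82 and 0.451 and 0.741 CPM in those labelled nup50c nup82. In the other 12 libraries it lay between 10.5 and 23.8 CPM, those labelled nup82 nup136 and nup50c nup82 nup136 included. Directions below rest on the labels. NUP136 (AT3G10650) read 42.0 and 42.6 against 50.3 and 53.4 CPM, which did not pass (log2 fold change 0.29 ± 0.121, adjusted p = 0.196).

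**Figure D1:**
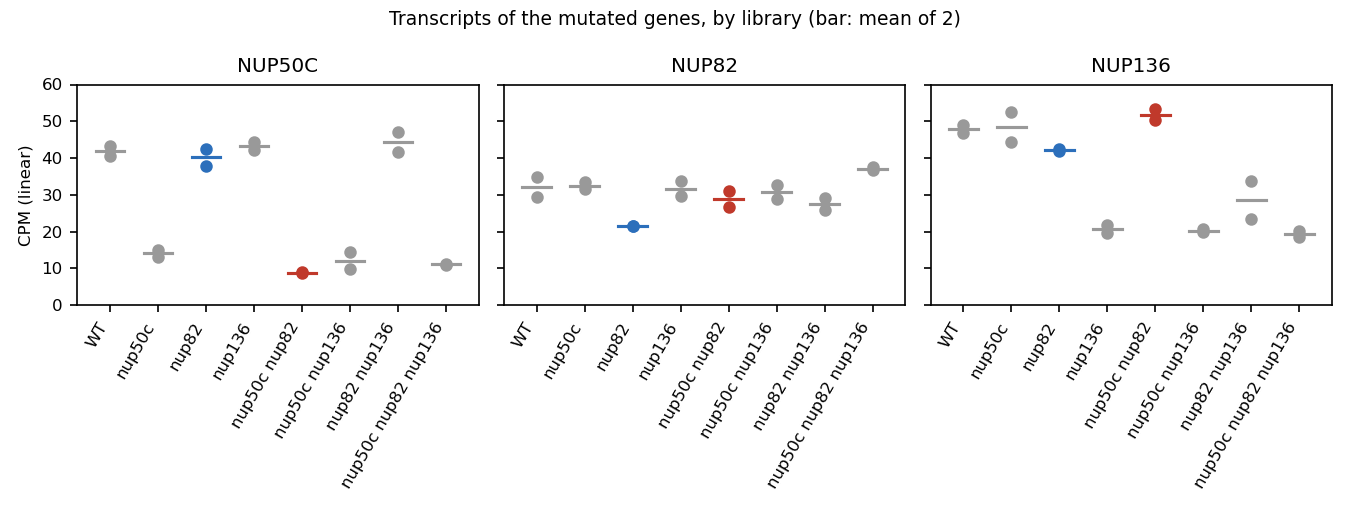
Transcript level (CPM, linear axis) of NUP50C, NUP82 and NUP136 in all 16 libraries by labelled genotype; each point is 1 library and each bar the mean of 2, with the libraries labelled nup82 in blue and those labelled nup50c nup82 in red. NUP50C was at 8.99 and 8.77 CPM in the red libraries, and NUP82 was lower in the blue libraries (21.7 and 21.4 CPM) than in the red ones (31.1 and 26.8 CPM).

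Across the transcriptome, 331 genes were higher and 431 lower in the libraries labelled nup50c nup82, which is 1.48% and 1.92% of the 22427 genes tested and 3.4% together (adjusted p under 0.05). At an unadjusted p under 0.05 these shares were 8.43% and 9.12%, and 17.5% together. Most changes were small, with a median absolute log2 fold change of 0.48 among these 762 genes, and 51 of them (19 higher, 32 lower) changed at least 2-fold. Of the 762 genes, 752 were protein-coding with a mean of at least 1 CPM and no overlap between the groups. A lack of overlap therefore sets few called genes apart from the rest. The share that passed rose with level, from 0.428% of the 5607 genes with the lowest mean CPM to 6.56% of the 5607 with the highest. Over the nuclear chromosomes it ran from 3.08% on chromosome 3 to 3.65% on chromosome 1, and 1 of 95 chloroplast genes passed. The counts depended on each library: leaving out nup50c nup82 replicate 1 left 148 calls and leaving out its replicate 2 left 340, while there were 298 on leaving out nup82 replicate 1 and 134 on leaving out its replicate 2. Called in all 4 of these fits were 71 of the 762 genes, 26 higher and 45 lower.

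**Figure D2:**
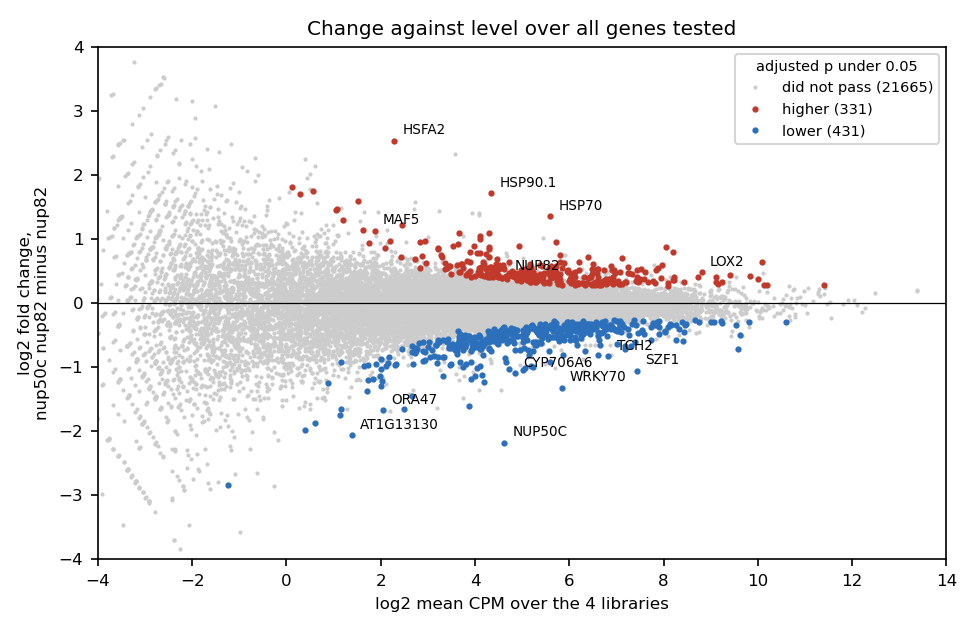
Log2 fold change (nup50c nup82 minus nup82) against the log2 mean CPM over the 4 libraries; each point is 1 gene, with the 331 higher genes in red, the 431 lower genes in blue and the others in grey, and 278 genes, 2 of them called, lie outside the axes. HSFA2 and NUP50C stand farthest from 0 among the labelled genes.

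The largest rise among called genes with a mean of at least 1 CPM was in a heat shock gene. HSFA2 (AT2G26150, chromosome 2, 11135624 to 11137792), a heat stress transcription factor that amplifies the heat response, read 1.32 and 1.53 CPM in the libraries labelled nup82 and 7.83 and 8.77 CPM in those labelled nup50c nup82. WT held 1.67 and 1.44 CPM and nup50c 1.74 and 1.29 CPM, so the libraries labelled nup50c nup82 were the high ones among these 8. The genotypes with nup136 were above WT as well, with 2.90 and 7.83 CPM in nup136, 9.175 and 7.198 CPM in nup50c nup136, 12.3 and 11.4 CPM in nup82 nup136, and 7.23 and 6.13 CPM in nup50c nup82 nup136. HSFA2 rose 5.81-fold (log2 fold change 2.54 ± 0.33, adjusted p = 0.000357) and passed whichever of the 4 libraries was left out.

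Of 32 heat shock genes tested, 8 were higher and 1 was lower, against 1.48% and 1.92% of all genes, and the list's median log2 fold change was 0.41 against 0.00 over all genes tested. The cytosolic chaperone HSP90.1 went from 10.11 and 8.93 CPM to 27.4 and 35.2 CPM, a 3.29-fold rise (adjusted p = 0.0277). The chaperone HSP70-4 (AT3G12580) went from 27.5 and 26.8 CPM to 63.7 and 74.8 CPM, a 2.55-fold rise (adjusted p = 0.0165). In both genes the groups were far apart, yet neither passed once any 1 of the 4 libraries was left out, with adjusted p of up to 0.207 and 0.140. HSP17.8 (AT1G07400), a small heat shock protein of class I, went from 1.85 and 1.01 CPM to 4.03 and 4.61 CPM (3.03-fold, adjusted p = 0.00771) and lost the call without nup50c nup82 replicate 2 or nup82 replicate 2. Small heat shock genes of class I resemble each other, so their reads may be divided between copies. HSP90.1 and HSP70-4 were also above WT in the combinations with nup136. HSP90.1 read 24.7 and 16.2 CPM in nup50c nup136, 25.8 and 27.7 CPM in nup82 nup136, and 31.2 and 33.0 CPM in nup50c nup82 nup136. WT held 11.6 and 12.1 CPM. HSP70-4 read 56.8 and 48.5, 57.9 and 62.5, and 59.5 and 61.3 CPM in that order, against 26.3 and 31.9 CPM in WT. In nup136 the 2 libraries differed widely, with 10.7 and 22.5 CPM for HSP90.1 and 31.05 and 55.4 CPM for HSP70-4.

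The other called members of the list fall outside the rule for naming genes and were named after their values were seen. HSFA7A, a further heat stress factor, went from 13.3 and 11.7 CPM to 23.9 and 29.4 CPM (log2 fold change 1.096 ± 0.15, adjusted p = 0.000180), and DREB2A, a drought and heat transcription factor, from 11.4 and 14.1 CPM to 20.5 and 23.2 CPM (0.78 ± 0.131, adjusted p = 0.00117). Both passed in all 4 fits with a library left out. The disaggregase HSP101 rose by 1.05 on the log2 scale (adjusted p = 0.00669) and the co-chaperone ROF2 by 1.00 (adjusted p = 0.00199). HSP101 lost the call without any 1 of the 4 libraries, and ROF2 without nup82 replicate 2. The repressor-class factor HSFB2A fell by 0.56 on the log2 scale (adjusted p = 0.0239), and lost the call without nup50c nup82 replicate 1 or nup82 replicate 2. With a library left out, the number of higher members was 5 and 4 (nup50c nup82 replicate 1 and 2) and 5 and 3 (nup82 replicate 1 and 2). MBF1C, a heat-induced coactivator, read 8.98 and 9.68 CPM against 25.6 and 23.7 CPM and did not pass (adjusted p = 0.107).

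The 250 bases before the start of the gene are shown for HSFA2 and HSFA7A, the heat shock factors that passed in every fit with a library left out, and for SZF1 and TCH2 of the touch list described below, one without and one with the motif searched there (RefSeq genome TAIR10.1; HSFA2 at chr2:11135374-11135623, plus strand; HSFA7A at chr3:19264891-19265140, plus strand; SZF1 at chr3:20775970-20776219, plus strand; TCH2 at chr5:14999620-14999869, minus strand). Capitals mark the heat shock element as GAANNTTC or TTCNNGAA in the HSFA2 and HSFA7A promoters and CGCGT, searched on both strands, in the touch promoters, where SZF1 has no match.
HSFA2: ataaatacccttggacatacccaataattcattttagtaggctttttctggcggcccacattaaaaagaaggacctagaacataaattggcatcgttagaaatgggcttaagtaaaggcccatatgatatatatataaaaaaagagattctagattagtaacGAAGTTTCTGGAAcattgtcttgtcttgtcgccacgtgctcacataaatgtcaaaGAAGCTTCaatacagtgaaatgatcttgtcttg
HSFA7A: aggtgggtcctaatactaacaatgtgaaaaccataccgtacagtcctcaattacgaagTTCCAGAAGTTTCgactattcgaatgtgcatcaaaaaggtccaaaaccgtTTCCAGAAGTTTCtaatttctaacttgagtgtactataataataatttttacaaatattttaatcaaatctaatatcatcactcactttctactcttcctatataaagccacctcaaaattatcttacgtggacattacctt
SZF1: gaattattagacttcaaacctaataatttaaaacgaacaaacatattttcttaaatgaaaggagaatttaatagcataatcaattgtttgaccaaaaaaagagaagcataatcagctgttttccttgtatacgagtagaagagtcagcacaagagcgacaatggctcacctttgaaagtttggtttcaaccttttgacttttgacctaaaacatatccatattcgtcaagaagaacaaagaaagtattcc
TCH2: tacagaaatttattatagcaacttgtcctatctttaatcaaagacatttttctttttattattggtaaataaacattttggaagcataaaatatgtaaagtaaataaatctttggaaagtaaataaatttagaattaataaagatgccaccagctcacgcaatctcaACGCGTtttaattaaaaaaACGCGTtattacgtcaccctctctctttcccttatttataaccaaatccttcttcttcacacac
At least 1 heat shock element in either order, overlaps included, stood in 3508 of the 22295 promoters of this length, in 15 of 32 heat shock genes, in 3 of the 9 called and in 12 of the 23 not called. Among the genes called higher over the whole transcriptome it was 53 of 330 promoters, and among those called lower 82 of 431. This element has 2 units of 3 fixed bases. Matches with 3 units were fewer, in 93 of the 22295 promoters and in 5 of the 32 heat shock genes. They went the other way, in 3 of the 9 called heat shock genes and 2 of the 23 not called. Among all genes called higher they stood in 5 of 330 promoters, and among those called lower in 2 of 431. Neither contrast was tested. CGCGT stood in 7.34% of all promoters, in 3 of the 16 touch genes and, of the 3 touch genes that passed, in TCH2. The window of HSP90.1 held no heat shock element and that of ERF5 no CGCGT. The HSP90.1 window holds an ATG near its end, so it may include transcribed or coding bases. Bases farther upstream were not searched in any gene. These matches are a description of the letters in this window.

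Among the other large rises, XTH25, a xyloglucan endotransglucosylase/hydrolase, read 0.769 and 0.192 CPM against 1.49 and 1.91 CPM (log2 fold change 1.82 ± 0.446, adjusted p = 0.0217). MIOX4, an inositol oxygenase that feeds precursors to the wall, read 1.06 and 1.17 against 2.44 and 3.73 CPM (1.47 ± 0.298, adjusted p = 0.00580). MAF5, a MADS-box factor of the FLC clade, read 2.11 and 2.47 CPM against 5.33 and 4.71 CPM (1.13 ± 0.229, adjusted p = 0.00570), while WT held 5.11 and 6.38 CPM. In each of these genes the groups did not overlap, which the rule for naming required. TRM24 (1.75), AT5G38320 (1.70), AT1G59860, a small heat shock protein of class I (1.303), AT1G15830 (1.21) and the receptor-like protein RLP37 (1.14) completed the 12 largest rises in log2 fold change. Of these 12 genes HSFA2 alone passed in all 4 fits with a library left out. XTH25, MIOX4, MAF5, RLP37 and AT1G59860 passed in 1 of them, TRM24, AT1G15830 and HSP17.8 in 2, and HSP90.1, HSP70-4 and AT5G38320 in 0.

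Among called genes with a mean of at least 1 CPM, the largest fall after NUP50C was in AT1G13130, which encodes a glycosyl hydrolase of family 5 and went from 4.30 and 4.17 CPM to 1.22 and 0.813 CPM (log2 fold change -2.06 ± 0.265, adjusted p = 9.84e-05), below both WT libraries at 4.46 and 4.44 CPM. BXL3, a beta-xylosidase, fell by 1.98 on the log2 scale (adjusted p = 0.00639), AT4G33810, annotated as an endo-1,4-beta-xylanase, by 1.46 (adjusted p = 0.000766), and AT4G24430, with rhamnogalacturonate lyase domains, by 1.38 (adjusted p = 0.00192). AT1G72920, a TIR-domain protein gene, went from 18.7 and 25.3 CPM to 6.13 and 8.32 CPM (-1.60 ± 0.196, adjusted p = 0.000160), against 10.9 and 8.51 CPM in WT. All 4 libraries labelled nup82 or WT were higher than those labelled nup50c nup82. The kinase gene MAPKKK19 fell by 1.75, AT2G17740 by 1.87, AT1G17030 by 1.66 and the ERF gene AT1G33760 by 1.65 on the log2 scale (adjusted p = 0.01, 0.00936, 0.00584 and 0.00916). AT1G13130, AT4G33810, AT4G24430 and AT1G72920 passed in all 4 fits with a library left out. BXL3, AT2G17740 and AT1G17030 lost the call without nup50c nup82 replicate 2 or nup82 replicate 2, AT1G33760 without nup50c nup82 replicate 1 or nup82 replicate 2, and MAPKKK19 without any 1 of the 4.

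**Figure D3:**
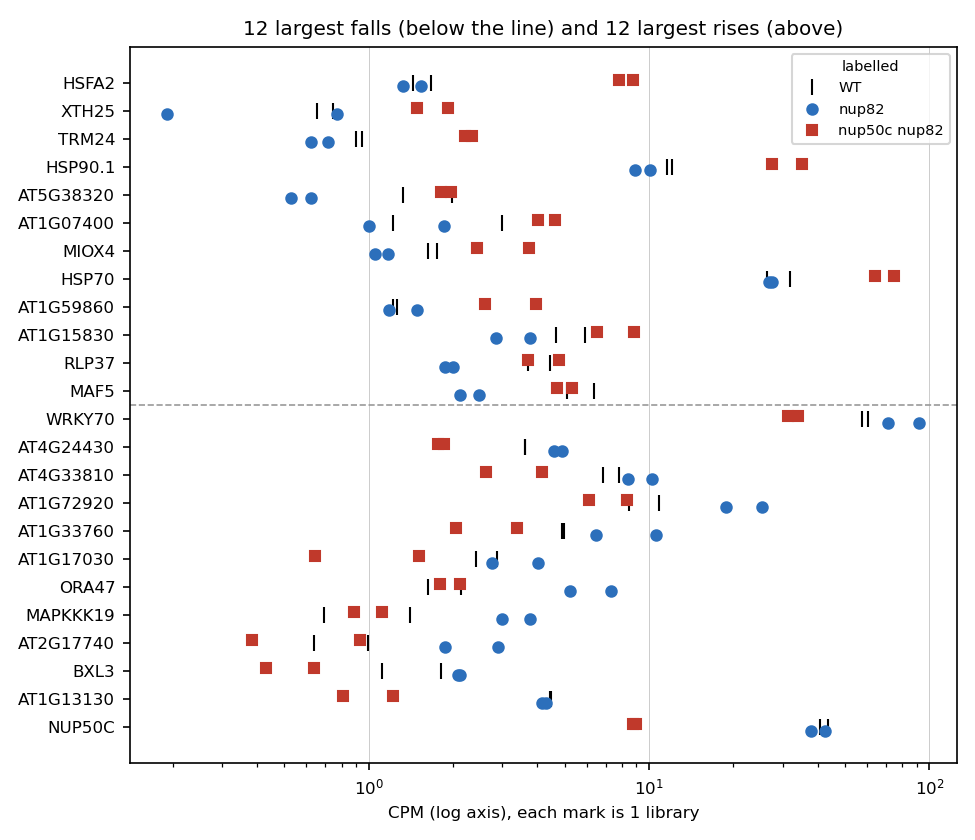
CPM (log axis) in each library for the 12 largest falls, below the dashed line, and the 12 largest rises, above it; circles are libraries labelled nup82, squares those labelled nup50c nup82, and ticks WT. HSP70 is HSP70-4 and AT1G07400 is HSP17.8; circles and squares do not overlap in any of the 24 genes, which the rule for naming required.

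The 4 smallest adjusted p-values after NUP50C, among genes whose groups did not overlap, all belonged to falls. CYP706A6, a cytochrome P450, went from 41.3 and 37.3 CPM to 19.5 and 17.3 CPM (log2 fold change -1.10 ± 0.105, adjusted p = 1.11e-06), close to WT at 21.5 and 20.6 CPM. GPAT3, a glycerol-3-phosphate acyltransferase, went from 48.5 and 48.7 CPM to 23.1 and 26.2 CPM (-0.98 ± 0.113, adjusted p = 3.31e-05). The GRAS-family gene AT3G46600 (SCL30) fell by 0.76 on the log2 scale (adjusted p = 3.39e-05) and RAV1, an AP2/B3 transcription factor, by 0.65 (adjusted p = 5.62e-05). All 4 genes passed whichever library was left out.

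The touch and rapid stress list holds genes quickly induced by mechanical or other stress. Of its 16 members 3 were lower and 0 higher, against 1.92% and 1.48% of all genes. None had a positive log2 fold change, against 11267 of all 22427 genes tested, and the members' median log2 fold change was -0.67. At an unadjusted p under 0.05 in the same edgeR test, 8 members were lower and 0 higher, against 9.12% and 8.43% of all genes. The DESeq2 Wald test called 7 lower and 0 higher. Over all 22427 genes it called 747 lower and 486 higher, which is the base for the DESeq2 counts of the other lists as well. SZF1, a CCCH zinc finger protein of stress responses, went from 216.8 and 253.1 CPM to 92.3 and 133.3 CPM (log2 fold change -1.06 ± 0.137, adjusted p = 0.000996), below WT at 159.2 and 165.7 CPM. TCH2, a calmodulin-like calcium sensor whose promoter is printed above, went from 136.7 and 155.0 CPM to 82.3 and 81.4 CPM (-0.83 ± 0.137, adjusted p = 0.00420). ERF5, an ethylene response factor of defence, went from 17.0 and 22.5 CPM to 10.11 and 10.7 CPM (-0.92 ± 0.178, adjusted p = 0.00580). In all 3 genes both libraries labelled nup50c nup82 were also below both WT libraries. SZF1 passed in all 4 fits with a library left out, while TCH2 and ERF5 lost the call without nup50c nup82 replicate 1 or nup82 replicate 2; the count of lower members was then 1, 4, 5 and 1. Replicates differed widely in WRKY40, a defence transcription factor of the list, which read 22.9 and 44.3 CPM against 16.3 and 32.1 CPM and did not pass (adjusted p = 0.666).

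Of 25 jasmonate genes tested, 3 were higher and 1 was lower, against 1.48% and 1.92% of all genes. The median log2 fold change was -0.01. ORA47, an ERF factor that activates jasmonate synthesis genes, went from 7.30 and 5.22 CPM to 2.12 and 1.79 CPM (log2 fold change -1.68 ± 0.269, adjusted p = 0.000766). The enzymes of jasmonate synthesis LOX2 and AOS rose: LOX2 from 360.1 and 385.4 CPM to 548.3 and 497.0 CPM (0.49 ± 0.0854, adjusted p = 0.00176), and AOS from 106.9 and 117.2 CPM to 164.0 and 149.6 CPM (0.48 ± 0.0939, adjusted p = 0.00407). The groups did not overlap in either, as in at least 752 of the 762 called genes, and both moved opposite to ORA47. The repressor gene JAZ3 rose by 0.48 on the log2 scale (adjusted p = 0.0227), whereas JAZ5, at 5.77 and 10.11 against 4.51 and 3.63 CPM, did not pass (adjusted p = 0.124). ORA47 passed in all 4 fits with a library left out. LOX2 lost the call without nup50c nup82 replicate 1, AOS without nup50c nup82 replicate 1 or nup82 replicate 1, and JAZ3 without any 1 of the 4; the higher count was then 0, 4, 1 and 2.

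Of 25 salicylic acid genes, 2 were lower and 0 higher, against 1.92% and 1.48% of all genes, with a median log2 fold change of 0.13. At an unadjusted p under 0.05 in edgeR 4 were higher, against 8.43% of all genes, and DESeq2 called 0 higher. WRKY70, a factor between the salicylic acid and jasmonate branches, went from 71.4 and 92.1 CPM to 31.3 and 34.1 CPM (-1.32 ± 0.207, adjusted p = 0.00746), below WT at 57.3 and 60.3 CPM. EDS1, a lipase-like hub of immunity, fell by 0.34 (adjusted p = 0.0426). Of 11 genes for camalexin and indolic glucosinolates, 2 were lower, with a median of -0.46: MYB51, their transcription factor, went from 38.1 and 39.1 CPM to 20.3 and 25.8 CPM (-0.74 ± 0.114, adjusted p = 0.000588), and CYP81F2, which modifies indolic glucosinolates, from 30.9 and 33.1 CPM to 16.0 and 19.3 CPM (-0.85 ± 0.214, adjusted p = 0.0479). Of 17 aliphatic glucosinolate genes, 2 were lower, FMO GS-OX3 (-0.61, adjusted p = 0.00914) and GGP1 (-0.45, adjusted p = 0.0181). MYB51 passed in all 4 fits with a library left out and WRKY70 in all but that without nup50c nup82 replicate 1. FMO GS-OX3 passed only without nup50c nup82 replicate 1, and EDS1, CYP81F2 and GGP1 passed in 0 of the 4.

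Among nutrient responses, 3 of 12 sulfur deficiency genes were lower, against 1.92% of all genes, and 0 higher (1 at an unadjusted p under 0.05 in edgeR, 0 by DESeq2), with a median log2 fold change of -0.36. APR1, the reductase of sulfate assimilation, went from 186.3 and 171.8 CPM to 115.1 and 110.2 CPM (-0.67 ± 0.0946, adjusted p = 0.000266). SDI1 went from 20.4 and 28.0 CPM to 15.8 and 14.1 CPM (-0.70 ± 0.158, adjusted p = 0.0152) and SDI2 from 29.2 and 26.4 CPM to 20.1 and 17.7 CPM (-0.56 ± 0.154, adjusted p = 0.0474). Both encode repressors of glucosinolate synthesis. The groups did not overlap in any of the 3 sulfur genes, as in at least 752 of the 762 called genes. APR1 passed in all 4 fits with a library left out, SDI1 only without nup82 replicate 1, and SDI2 in none of the 4. Of 15 nitrate genes, 1 was lower: LBD38, a nitrate-induced repressor, fell by 0.42 on the log2 scale (adjusted p = 0.00728) and passed only without nup50c nup82 replicate 2 among these fits. In phosphate starvation genes 0 of 19 passed in the edgeR fit of all 16 libraries, with 5 lower at an unadjusted p under 0.05 (9.12% of all genes) and 0 by DESeq2, and the median was -0.31. An edgeR fit of only the genotypes compared called 6 lower, and the fit without the low-count filter 5. SPX3 read 4.54 and 3.71 against 2.02 and 2.199 CPM there (adjusted p = 0.219). Of 20 iron genes 0 passed in edgeR (2 higher and 2 lower at an unadjusted p under 0.05, 1 and 1 by DESeq2). The phosphocholine enzyme gene AT1G73600 (NMT3) went from 375.4 and 362.4 CPM to 240.5 and 254.2 CPM (-0.58 ± 0.0825, adjusted p = 0.00027) and passed in all 4 fits, while WT held 96.4 and 99.9 CPM.

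Of 13 cold response genes, 1 was higher and 2 were lower, against 1.48% and 1.92% of all genes. The chloroplast membrane protein gene COR413IM1 went from 44.8 and 42.0 CPM to 59.8 and 61.7 CPM (0.49 ± 0.109, adjusted p = 0.0119), KIN1 fell by 0.67 on the log2 scale (adjusted p = 0.0314), and CBF1, a master factor of cold acclimation with few reads here, read 0.817 and 0.671 against 0.159 and 0.0478 CPM (-2.84 ± 0.752, adjusted p = 0.0343). The call was lost in all 3 genes without any 1 of the 4 libraries. The flavonol synthase gene FLS1 fell by 0.36 (adjusted p = 0.0139, 1 of 16 flavonoid genes) and passed only without nup50c nup82 replicate 2.

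Of 26 nuclear photosynthesis genes, 3 were higher, against 1.48% of all genes, and 0 lower, with a median log2 fold change of 0.17. At an unadjusted p under 0.05 in edgeR 14 were higher and 2 lower, against 8.43% and 9.12% of all genes. DESeq2 called 5 higher and 1 lower, against 486 and 747 of all 22427 genes. The antenna gene LHCB4.2 went from 926.9 and 877.3 CPM to 1117 and 1217 CPM (0.37 ± 0.071, adjusted p = 0.00343). PSBO1, of the oxygen-evolving complex, went from 2466 and 2383 CPM to 3106 and 2816 CPM (0.29 ± 0.0731, adjusted p = 0.0273), and PSAG, of photosystem I, rose by 0.30 (adjusted p = 0.0407). In the senescence list 2 of 8 genes were lower, against 1.92% of all genes. NYE1, the magnesium dechelatase, fell from 22.6 and 20.9 CPM to 15.4 and 12.3 CPM (-0.65 ± 0.137, adjusted p = 0.00746), and NYC1, the chlorophyll b reductase, by 0.38 on the log2 scale (adjusted p = 0.0147). LHCB4.2 lost the call without nup50c nup82 replicate 2 or nup82 replicate 2, and NYE1 without nup50c nup82 replicate 2 or nup82 replicate 1. PSBO1 passed only without nup50c nup82 replicate 2 and NYC1 only without nup50c nup82 replicate 1, and PSAG in 0 of the 4 fits.

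Of the hormone lists, 3 of 10 type-A response regulators, which dampen cytokinin signalling, were lower, against 1.92% of all genes, and 0 higher (also 0 at an unadjusted p under 0.05 in edgeR and 0 by DESeq2). ARR5 went from 36.2 and 35.1 CPM to 22.5 and 27.3 CPM (log2 fold change -0.52 ± 0.114, adjusted p = 0.0102). ARR9 fell by 0.38 on the log2 scale (adjusted p = 0.0125), and ARR7 by 0.56 (adjusted p = 0.0419). The groups did not overlap in any of the 3 regulators, as in at least 752 of the 762 called genes. ARR5 passed only without nup50c nup82 replicate 2 and ARR7 only without nup82 replicate 1, ARR9 in 0 of the 4 fits. IAA4, an auxin repressor gene, fell by 0.36 (adjusted p = 0.0223, 1 of 17 auxin genes, lost without any 1 library). Of 11 flowering genes MAF5, described above, passed; FT, the florigen gene, read 1.73 and 1.22 against 0.212 and 0.191 CPM without passing (adjusted p = 0.0599).

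Markers of organs were checked because the samples were whole seedlings, in which fewer cells of a type and less RNA per cell cannot be told apart. Of 19 root markers, 2 were lower, against 1.92% of all genes, and both are genes of root hairs. EXPA18, a root-hair expansin, went from 15.2 and 14.3 CPM to 7.14 and 7.96 CPM (-0.97 ± 0.154, adjusted p = 0.000766) and passed in all 4 fits with a library left out, whereas COBL9 (8.10 and 8.72 against 5.31 and 4.52 CPM, adjusted p = 0.0486) passed in none of them. The root markers' median log2 fold change was -0.03. In shoot and leaf markers 0 of 7 and in seed and embryo markers 0 of 10 passed in edgeR, with 0 at an unadjusted p under 0.05 and 0 by DESeq2 in both. The rule for naming genes picked CUC2 and MYB0 among the shoot and leaf markers, with log2 fold changes of -0.60 and 0.37 (edgeR adjusted p = 0.684 and 0.694). Given outside this rule, the shoot meristem gene STM read 2.71 and 3.26 against 2.97 and 4.25 CPM, and SPCH, of the stomatal lineage, 7.88 and 7.40 against 9.44 and 7.89 CPM.

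Of the other basket genes, NUP50A (46.2 and 42.1 against 43.2 and 44.4 CPM), NUP50B (35.4 and 28.8 against 34.6 and 33.0 CPM) and the basket gene NUA (80.6 and 78.2 against 82.3 and 87.2 CPM) did not pass; NUP50A and NUP50B overlapped between the groups (adjusted p = 0.968, 0.792 and 0.616). Of 14 genes of the Ran cycle and transport receptors 0 passed in edgeR, with 0 at an unadjusted p under 0.05 and 0 by DESeq2. Of 26 pore scaffold and channel genes 0 passed (2 higher and 1 lower at an unadjusted p under 0.05, 0 by DESeq2), and of 13 mRNA export genes 0 (1 and 2, 0 by DESeq2). Their medians were 0.08, 0.07 and 0.08. SR splicing factor genes had a positive log2 fold change in 15 of 15 cases, against 11267 of all 22427 genes tested, with a median of 0.16. Among them SR30 (75.4 and 70.7 against 81.2 and 94.6 CPM, adjusted p = 0.0693) had the smallest adjusted p. None of the 15 passed in edgeR, 3 were higher at an unadjusted p under 0.05, and 2 by DESeq2. In all, 14 of the 32 lists had no called member, and their 201 tested genes held 11 higher and 23 lower at an unadjusted p under 0.05 and 3 and 3 by DESeq2. Over all genes the shares at an unadjusted p under 0.05 were 8.43% and 9.12%, and DESeq2 called 486 higher and 747 lower of 22427.

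Several list counts rose in fits that call more genes throughout. Without the low-count filter, 14 of 16 touch genes were lower, 11 heat shock genes were higher and 8 photosynthesis and 8 jasmonate genes were higher. Of the jasmonate genes 5 were lower in that fit, as were 7 camalexin and indolic glucosinolate, 6 cold response and 5 sulfur deficiency genes. The fit of only the genotypes compared gave 5 lower touch, 12 higher heat shock (of 26 tested), 5 higher photosynthesis, 4 lower aliphatic glucosinolate, 6 lower cold response and 5 lower sulfur deficiency genes. Over all genes, the fit without the filter called 652 higher and 954 lower of 26672 tested. The fit of only the genotypes compared called 619 higher and 870 lower of 21372. These fits called 1606 and 1489 genes in all, against 762 of 22427.

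**Figure D4:**
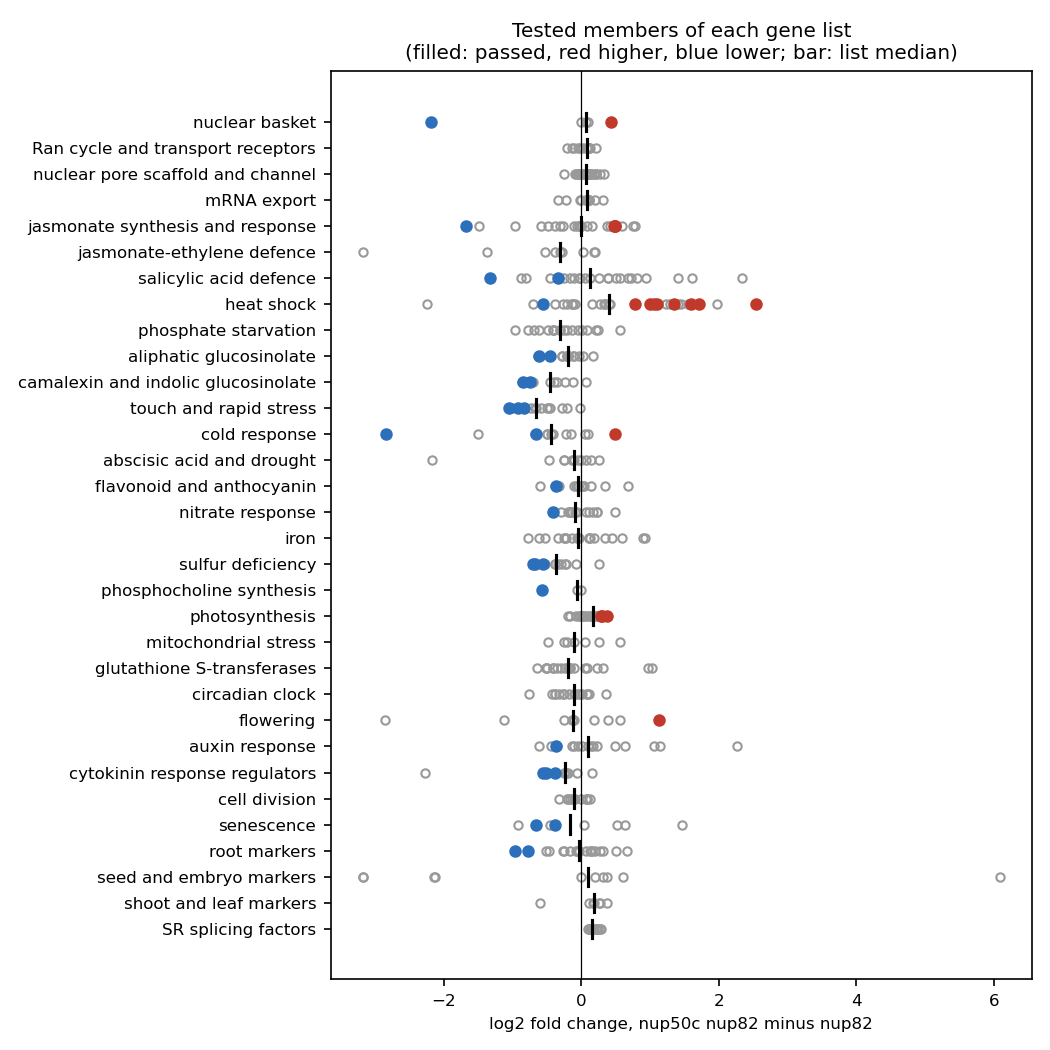
Log2 fold change (nup50c nup82 minus nup82) of every tested member of the 32 gene lists; open circles did not pass, filled red circles were higher, filled blue circles lower, and the black bar is the list's median. The heat shock list holds 8 filled red circles and a median of 0.41, and the touch list 3 filled blue circles and a median of -0.67.

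Within 1 Mb of NUP50C on chromosome 4 12 of 368 other genes passed, 5 higher and 7 lower. That share of 3.26% is near the 3.4% of all genes. CYP706A6, described above, had the smallest adjusted p among them. ACS6, an enzyme of ethylene synthesis, went from 50.2 and 49.7 CPM to 22.2 and 27.9 CPM (log2 fold change -0.995 ± 0.195, adjusted p = 0.0182) and passed only without nup50c nup82 replicate 2. Hop3, a co-chaperone of HSP70 and HSP90, went from 13.1 and 14.7 CPM to 22.2 and 28.8 CPM (0.87 ± 0.182, adjusted p = 0.00995), in the direction of the heat shock genes above, and passed only without nup50c nup82 replicate 1. The other 9, among them TPPF, NYC1, FLA2, AHL1 and J20, had log2 fold changes between -0.69 and 0.44, and none of them passed in more than 1 of the fits with a library left out.

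The nup50c mutation was also added to WT, nup136 and nup82 nup136, and those comparisons share no library with the one described here. Among the 762 genes, 207 had the same sign in nup50c against WT and 555 the opposite sign, so that 27.2% had the same sign, against 44.2% over all 22427 genes. Of the 331 genes higher in the libraries labelled nup50c nup82, 70 were called lower in nup50c against WT and 5 higher, and of the 431 lower genes 50 were called higher and 1, NUP50C, lower. Over all genes, nup50c against WT called 207 genes higher and 182 lower, 0.923% and 0.812% and 1.73% together. The median log2 fold change in nup50c against WT was -0.16 in the higher genes and 0.09 in the lower genes. With nup136 as the background, where 8.9% of genes were called, 49.9% of the 762 genes had the same sign, and with nup82 nup136, where 29.8% were called, 44.2%. Across all genes Pearson's r of the log2 fold changes was -0.09 for WT, 0.01 for nup136 and 0.03 for nup82 nup136; genes are not independent, and no test is attached.

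Whether the effect of nup50c differed between the nup82 and WT backgrounds was tested gene by gene, as the difference of both log2 fold changes. It differed in 1073 genes, 4.78% of those tested, being more positive with nup82 in 517 (2.31%) and more negative in 556 (2.48%). ORA47 had a difference of -4.58 (adjusted p = 2.47e-08): it stood at 2.13 and 1.62 CPM in WT, 14.1 and 14.1 CPM in nup50c, 7.30 and 5.22 CPM in the libraries labelled nup82, and 2.12 and 1.79 CPM in those labelled nup50c nup82. Both single mutants were thus above WT, and the libraries labelled nup50c nup82 were near the WT level. AT1G73600 stood at 325.6 and 325.2 CPM in nup50c, and its difference was -2.31 (adjusted p = 1.82e-12). CYP706A6 read 47.6 and 46.1 CPM in nup50c, with a difference of -2.26 (adjusted p = 2.78e-10).

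In the heat shock list the difference was positive in 5 members and negative in 2 that passed, against 2.31% and 2.48% of all genes. HSFA2 had a log2 fold change of -0.04 in nup50c against WT and a difference of 2.58 between the backgrounds (adjusted p = 0.00332). With the other backgrounds its log2 fold change was 0.62 for nup136 (adjusted p = 0.235) and -0.82 for nup82 nup136 (adjusted p = 0.0370). For HSP90.1 the difference was 1.81 (adjusted p = 0.0672) and for HSP70-4 1.37 (adjusted p = 0.0519), neither of which passed. In the touch list SZF1, TCH2 and ERF5 had differences of -1.34, -1.02 and -1.14 (adjusted p = 0.000914, 0.00622 and 0.00889), with log2 fold changes of 0.28, 0.19 and 0.22 in nup50c against WT that did not pass. Of 17 aliphatic glucosinolate genes 9 had a negative difference that passed, and of 19 phosphate starvation genes 6, against 2.48% of all genes. NUP50C itself fell in both backgrounds, by 1.57 on the log2 scale in nup50c against WT (adjusted p = 4.27e-08), and the difference of -0.60 did not pass (adjusted p = 0.0594).

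**Figure D5:**
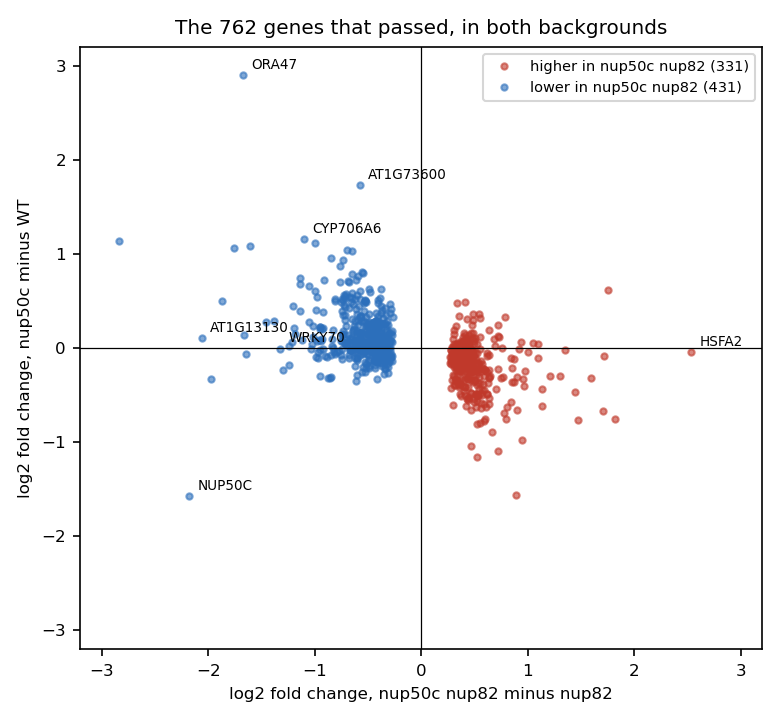
Log2 fold change of the nup50c mutation with nup82 (horizontal, nup50c nup82 minus nup82) and in WT (vertical, nup50c minus WT) for the 762 genes called in the former, higher genes in red and lower genes in blue, with 2 genes outside the axes. Of these genes 555 lie in quadrants of opposite sign, ORA47, AT1G73600 and CYP706A6 among them, and NUP50C lies in the lower left.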

How the data were processed

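The authors deposited raw read counts per gene for 16 libraries of whole Arabidopsis seedlings. HISAT2 2.0.4, HTSeq 0.6.1p1 and the TAIR10 build are named in the submitters' processing notes; the strand setting of the counting is not given in the sources used here, so antisense partners may share reads. Totals ran from 37923632 to 46194172 counts per library (38003229 to 42290402 in the 4 libraries compared). A deposited table of FPKM values was not used.

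Of 32833 genes, 22427 passed edgeR's filterByExpr (minimum count 10), which kept 99.989% of counts. Counts were scaled by TMM and tested with edgeR 4.0.16 (R 4.3.3, robust quasi-likelihood), with 1 coefficient per genotype over all 16 libraries and 8 residual degrees of freedom, with Benjamini-Hochberg adjustment over the 22427 genes (threshold 0.05). The common biological coefficient of variation was 0.102. The script was tested on simulated data.

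The comparison, its 32 gene lists (499 genes, of which 482 were tested) and their members were chosen with earlier results of these data known. Named genes were the 3 mutated genes; the 12 largest rises, 12 largest falls and 5 smallest adjusted p among called protein-coding genes with a mean of at least 1 CPM and no overlap between groups; called genes within 1 Mb of NUP50C; and up to 4 called members per list, or up to 2 members, as values only, of a list without calls. Values of JAZ5, FT, WRKY40, MBF1C, STM, SPCH, NUP50A, NUP50B and NUA are given outside this rule. Gene names and promoters came from RefSeq (TAIR10.1), where 32548 gene IDs matched and 32532 had the same coordinates. Alternatives were DESeq2 1.42.0, other scalings, no filter, a replicate block, a fold threshold, a fit restricted to the compared genotypes and leaving out each library.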

Additional observations from a re-analysis of the deposited data

Results flagged for a closer look

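The results below are differences between the effect of nup50c in the nup82 background and in WT, on the log2 scale (nup82 background minus WT background), each past an adjusted p of 0.05 in edgeR's test of the difference itself. In all, 1073 genes differed. Those listed are named genes, and apart from the genes given last they were also called in nup50c nup82 against nup82. That comparison is a part of the difference, so genes chosen for a large change in it tend to have a large difference. NUP82 transcripts were higher in the libraries labelled nup50c nup82 than in those labelled nup82, and the part of this in the differences was not tested.

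Among the regulators of stress, hormone and defence responses the difference was -4.58 in ORA47, -3.97 in CBF1, -2.82 in MAPKKK19, -2.69 in AT1G72920, -2.11 in ACS6, -1.34 in SZF1, -1.31 in WRKY70, -1.14 in ERF5, -1.02 in TCH2 and -0.88 in MYB51. It was -1.24 in AT3G46600, -1.24 in RAV1, -0.75 in RR5 (ARR5), -0.63 in ARR9, -0.50 in LBD38 and -0.43 in ATAUX2-11 (IAA4).

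Among genes of metabolism and the cell wall it was -2.31 in AT1G73600, -2.26 in CYP706A6, -2.17 in AT1G13130, -1.74 in ATSDI1 (SDI1), -1.73 in AT4G33810, -1.66 in AT4G24430, -1.52 in GPAT3, -1.34 in FMO GS-OX3, -1.21 in APR1, -0.97 in NYE1, -0.86 in EXPA18, -0.82 in ATSPS4F, -0.75 in NYC1, -0.72 in GGP1 and -0.50 in AT4G13720. It was -2.37 in AT2G17740 and -1.80 in AT1G17030.

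Positive differences were 2.58 in HSFA2, 1.91 in AT1G07400 (HSP17.8), 1.60 in AT1G59860 and 0.99 in Hop3 among heat shock genes. They were 2.57 in XTH25, 2.24 in MIOX4, 0.67 in FLA2, 2.38 in AT5G38320, 1.75 in RLP37, 1.57 in MAF5, 1.51 in AT1G15830, 0.78 in AHL1, 0.54 in AT4G10970, 0.37 in LHCB4.2 and 0.36 in PSBO1.

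Of the 1073 genes, 607 were not called in nup50c nup82 against nup82. Among the named genes these were 4, with a difference of 2.84 in NAS2, a nicotianamine synthase of iron transport, of 0.51 in the splicing factor gene SCL33, of -2.23 in the clock gene PRR9 and of -0.53 in the cyclin gene CYCA1;1.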

How the results depend on the processing

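Of 762 genes (331 higher, 431 lower), leaving out 1 library gave 134 to 340 (higher 53 to 150, lower 81 to 190), and the lone sample is then assumed to vary like the other groups. The 1073 differences between backgrounds became 621 to 712 (positive 305 to 351, negative 316 to 365). Without the low-count filter 1606 genes passed (652 higher, 954 lower) and 1742 differences (986 negative). The DESeq2 Wald test called 1233 (747 lower). A fit of only the genotypes compared called 1489 (619 higher, 870 lower) and 858 negative differences. A change of at least 2-fold left 51 (19 higher, 32 lower) and 285 differences (100 positive, 185 negative), since fewer genes can pass. For the other shifts the cause was not tested. With DESeq2 size factors or library totals the counts were 807 and 791. No named gene that passed in the reported fit or in the alternative fit reversed its direction between them. Changes of sign in named genes that passed in neither were not counted. Of 1073 gene values, 232 changed their side of the threshold.

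Replicate numbers did not pair the libraries: deviations of same-numbered libraries correlated at 0.0044 for the genotypes compared and from -0.057 to 0.047 over 28 pairs of genotypes. With the replicate number as a block 978 genes passed (414 higher, 564 lower), 754 of them shared with the 762, and 1162 differences. Under this block 6 touch genes and 1 phosphate starvation gene were lower. By level, 0.428% of the 5607 genes of lowest level passed against 6.56% of the 5607 of highest level.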

Other observations

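Genes of xylem cells were looked at after their values were seen, so their counts are a description with no test. Of 22 genes of tracheary elements and xylem cell death, 8 were lower and 1 was higher in the libraries labelled nup50c nup82. These calls against nup82 were at an adjusted p under 0.05 in edgeR, and the shares over all genes were 1.92% and 1.48%. Of the 22 genes 19 had a negative log2 fold change, and their median was -0.56. Over all genes tested 11267 of 22427 had a positive one. The lower genes were the cysteine proteases XCP1 and XCP2, the metacaspase MC9, the nucleases BFN1 and RNS3, TED6, LAC4 and PRR1, and the higher one was XYP1. The other members did not pass. Among these, VND6, VND7, MYB46 and MYB83 had log2 fold changes of -0.19, -1.22, 0.21 and -0.58. CESA4, CESA7 and CESA8 had -0.12, -0.36 and -0.46, and IRX6, IRX8, IRX9 and IRX10 had -0.41, -0.20, -0.33 and 0.03. TED7 and LAC17 had -0.62 and -0.55. TED6, which takes part in secondary wall formation, read 32.6 and 38.03 CPM against 15.3 and 19.4 CPM, and MC9 15.8 and 18.0 CPM against 8.83 and 8.99 CPM. The groups did not overlap in either gene, as in at least 752 of the 762 called genes. With 1 library left out 5 to 9 genes were lower and 0 higher, and XCP1, XCP2, MC9, TED6 and PRR1 were lower in all 4 such fits. For the nup50c mutation in WT, nup136 and nup82 nup136 the medians of the 22 genes were 0.10, -0.03 and -0.03. In whole seedlings, fewer xylem cells and less RNA per cell cannot be told apart.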
